A study of Mus musculus with 2 samples.

Results

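A set of 10 genes that store, carry, move or sense iron was followed in the mouse adrenal gland: Fth1, Ftl1, Tfrc, Trf, Slc40a1, Slc11a2, Aco1, Ireb2, Ncoa4 and Hfe. They were chosen by name for their known roles, not by a rule on their measured values, though earlier results of these data were known. Each symbol matched 1 of the 55536 annotated genes in the deposited gene tables. All 10 are among the 22015 nuclear protein-coding genes. Total RNA of whole adrenal gland from female mice of the F1 hybrid strain B6CASTF1/J, 36 days old, was sequenced in 2 libraries numbered as biological replicates 1 and 2. Each library started from 300 ng of RNA, was depleted of ribosomal RNA, kept strand and held ERCC spike-ins. Genotype, sex, age, tissue and protocol were the same in both, so the series holds 1 group, no treated or control samples and no test between conditions. The biosample labels number the animals differently, whereas the library descriptions give both the same animal number and both share a donor identifier. The SDs below are therefore the spread over 2 libraries, which may be technical.

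Cells take up iron mainly as iron-loaded transferrin (Trf), which binds the transferrin receptor (Tfrc) and enters endosomes, from which DMT1 (Slc11a2) carries the metal into the cytosol. Surplus iron is kept in ferritin, a shell of heavy (Fth1) and light (Ftl1) chains, and is released when NCOA4 delivers ferritin to the lysosome, while ferroportin (Slc40a1) is the exporter. The iron regulatory proteins IRP1 (Aco1) and IRP2 (Ireb2) bind iron-responsive elements, short hairpins in untranslated regions, when iron is scarce. In a 5′ untranslated region such binding blocks translation, and in the 3′ untranslated region of Tfrc it protects the mRNA. HFE binds the transferrin receptor and takes part in setting hepcidin, the hormone that removes ferroportin from the membrane. The adrenal cortex makes steroids with mitochondrial enzymes that draw electrons from an iron-sulfur protein.

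The libraries held 35684781 expected counts in replicate 1 and 38701795 in replicate 2, so that a count of 0 allows up to 0.0841 and 0.0775 CPM. All 7 adrenal cortex markers were detected, with summed levels of 16361 and 16834 TPM (transcript abundance per length, scaled to a fixed total), as were all 7 chromaffin cell markers with 1490 and 1122 TPM. Replicate 1 stood apart in skeletal muscle markers, which summed to 286 TPM against 2.24 TPM in replicate 2, and in hepatocyte markers, with 31.7 against 1.82 TPM. Both libraries held brown fat markers at 1899 and 1883 TPM and red blood cell markers at 2384 and 1877 TPM. A level in whole tissue cannot tell fewer cells of a type from less RNA per cell.

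Of the 10 genes, 5 held an iron-responsive element by sequence, and these elements are printed because they split the genes by the side on which the sensors act. The annotated transcripts of GENCODE M21 were searched on the sense strand for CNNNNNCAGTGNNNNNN, in which the runs of 5 bases on either side of the loop had to pair, with at most 1 position unpaired. Each element is written 5′ to 3′ over 29 bases of mm10, with the bulged C and the first bases of the loop in capitals. The 3 elements found in Fth1, Ftl1 and Slc40a1 lie in the 5′ untranslated region and the 5 found in Tfrc and Slc11a2 in the 3′ untranslated region.
Fth1, chr19:9982732-9982760, plus strand: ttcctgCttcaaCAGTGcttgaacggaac
Ftl1, chr7:45459779-45459807, minus strand: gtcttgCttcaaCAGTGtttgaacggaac
Slc40a1, chr1:45925465-45925493, minus strand: caacttCagctaCAGTGttagctaagttt
Tfrc, chr16:32631219-32631247, plus strand: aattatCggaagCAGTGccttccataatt
Tfrc, chr16:32631598-32631626, plus strand: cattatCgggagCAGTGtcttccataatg
Tfrc, chr16:32631663-32631691, plus strand: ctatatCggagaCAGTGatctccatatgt
Tfrc, chr16:32631710-32631738, plus strand: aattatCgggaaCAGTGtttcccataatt
Slc11a2, chr15:100395153-100395181, minus strand: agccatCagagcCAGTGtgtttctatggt

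The heavy and light ferritin chains carried nearly the same element, with 26 of 29 bases alike. The 4 elements found in Tfrc shared 18 to 25 of 29 bases with each other, and 9 to 11 with the Fth1 element. These numbers include the bulged C and the CAGTG, which the search required and which are therefore alike in every pair. Only the Slc11a2 element needed the unpaired position, so that 4 of the 10 genes matched when none was allowed. Over all coding genes, 4.90% of 21901 had such a match in an untranslated region and 0.731% had one with no unpaired position. A match alone is therefore given as a description, and whether it is bound was not tested. No match was found in the transcripts of Trf, Aco1, Ireb2, Ncoa4 and Hfe, which says only that these letters are not there. The search sees only elements of this form and found none in Epas1, which is known for one. The matches found in a gene such as Tfrc may therefore not be all of its elements.

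**Figure D1:**
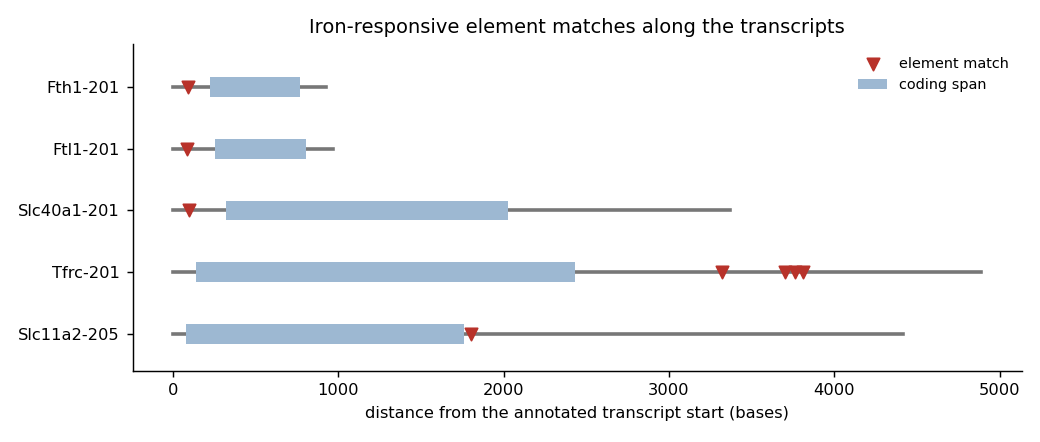
Position of the iron-responsive element matches (red triangles, at the bulged C) along the transcript with the most counts that carries them, in bases from the annotated start; the pale bars are the coding spans and the grey lines the whole transcripts. In Fth1-201, Ftl1-201 and Slc40a1-201 the match lies at bases 93, 84 and 96, before the coding span, whereas the 4 matches of Tfrc-201 lie at bases 3321 to 3812 and that of Slc11a2-205 at base 1803, behind it.

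All 10 genes were detected, at 1 TPM or more in both libraries, against 53.0% of the nuclear protein-coding genes. Their median level was 32.5 TPM, against 10.3 TPM over the 11662 detected nuclear protein-coding genes. The gene positions below are those of GENCODE M21 on mm10. The levels fell in the order Fth1, Ftl1, Ncoa4, Aco1, Trf, Slc11a2, Ireb2, Hfe, Tfrc and Slc40a1. Trf and Slc11a2 were the only neighbours in that order whose values in the libraries overlapped. Ferritin mRNA dominated the set: Fth1 and Ftl1 made up 83.7% of the summed TPM of the 10 genes in replicate 1 and 83.6% in replicate 2.

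**Figure D2:**
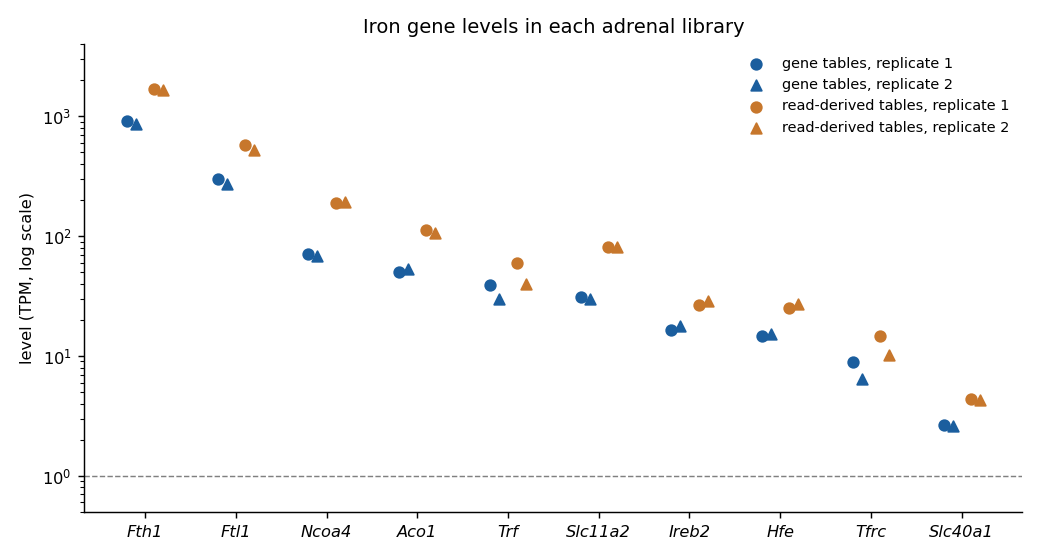
Level of each gene in TPM on a log scale, in the deposited gene tables (blue) and summed from the read-derived transcript tables (orange), with circles for replicate 1 and triangles for replicate 2; the dashed line marks 1 TPM. The genes span from 903 and 866 TPM for Fth1 to 2.66 and 2.60 TPM for Slc40a1 in the gene tables, and every read-derived value is higher than the gene-table value of the same library.

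Fth1 (chr19:9980598-9985098, plus strand), the ferritin heavy chain that oxidises iron for storage, had 903 TPM in replicate 1 and 866 in replicate 2. Its mean of 885 ± 25.8 TPM (SD, n = 2) gave it rank 13 among the nuclear protein-coding genes. It rested on 26964 and 27569.7 expected counts. Of its TPM, 98.4% and 97.4% fell on transcripts that carry the element, nearly all of it on Fth1-201, of 929 bases.

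Ftl1 (chr7:45457944-45459884, minus strand), the light chain that helps the iron core form, stood at 297 and 272 TPM, a mean of 285 ± 17.7 TPM (SD, n = 2) and rank 121. The ratio of heavy to light chain mRNA was 3.04 in replicate 1 and 3.18 in replicate 2. That ratio turns on how reads were split between near-identical records. Ftl1-ps1 on chromosome 13, which is named as a copy but annotated as protein-coding, matched Ftl1-201 in 906 of 910 aligned bases. It was given 288 and 251 TPM, which is 0.97 and 0.92 of the Ftl1 level, so that Ftl1 held only 51.2% and 51.9% of the counts of the gene and its near copies. Ftl2-ps, a shorter copy, held 4.75 TPM in replicate 1 and 12.4 in replicate 2. With the records named as Ftl1 copies added, the ratio of heavy to light chain was 1.54 and 1.65, and 1.198 and 1.33 in the read-derived tables. In the read-derived tables Ftl1-ps1 was above Ftl1, at 1.45 and 1.39 times its TPM. By counts, which are not divided by length, it was below Ftl1 there, at 7182 and 6610 against 9090 and 9010. The light chain level is therefore uncertain, at 285 TPM for Ftl1 alone and 564 TPM for Ftl1 with its near copies, as means over the libraries. The 285 TPM is not a lower bound, as the split of reads between Ftl1 and Ftl1-ps1 may err either way. The closest copy of Fth1, Gm6977, held only 1.08 and 1.14 TPM.

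Ncoa4 (chr14:32159865-32179855, plus strand), the receptor that brings ferritin to the lysosome, was the third of the genes by level. It stood at 70.4 and 68.6 TPM, a mean of 69.5 ± 1.31 TPM (SD, n = 2) and rank 764. Its near copy Gm6768, alike in 99.9% of 1878 aligned bases, held 10.8 and 9.40 TPM, and the sum of both was 81.2 and 78.0 TPM. The place of Ncoa4 above Aco1 turned in part on short transcripts. Ncoa4-204, of 451 bases, took 28.2% and 26.5% of the Ncoa4 TPM on 4.48% and 4.05% of its counts. Ncoa4-201, of 3343 bases, held 38.8 and 40.2 TPM, below the 48.4 and 51.6 TPM of Aco1-201.

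Among the uptake genes, Trf (chr9:103204001-103230444, minus strand), the carrier of iron in plasma, had 38.9 TPM in replicate 1 against 30.0 TPM in replicate 2. The coefficient of variation was 18.2%, and the mean of 34.5 ± 6.29 TPM (SD, n = 2) gave rank 1764. Its TPM were split between the full-length Trf-201, of 2571 bases, with 55.7% and 54.6%, and the retained-intron fragment Trf-209, of 433 bases, with 42.5% and 41.0%. By counts, which are not divided by length, Trf-209 held 9.28% and 8.90% of the gene. Gm20425, which overlaps Trf on the same strand, held 4.92 and 4.06 TPM, and with it added Trf still stood higher in replicate 1, at 43.8 against 34.1 TPM.

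Tfrc (chr16:32608920-32632794, plus strand), the receptor for loaded transferrin, was low for this set, at 8.95 and 6.45 TPM, with a coefficient of variation of 23.0%, the widest of the 10 in the gene tables. In the read-derived tables Trf was wider relative to its mean, at 50.02 ± 14.3 TPM against 12.4 ± 3.07 TPM for Tfrc (SD, n = 2). The gene-table mean of Tfrc was 7.70 ± 1.77 TPM (SD, n = 2) and its rank 6887. The ratio of Fth1 to Tfrc was 101 in replicate 1 and 134 in replicate 2. Tfrc-201, of 4890 bases and with all 4 matches found by the search, took 92.2% and 89.4% of the counts. Tfrc-202, of 1860 bases and with none, took 6.29% and 9.39%.

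Slc11a2 (chr15:100387898-100425072, minus strand), the proton-coupled iron transporter of endosomes, stood at 31.1 and 29.9 TPM, a mean of 30.5 ± 0.806 TPM (SD, n = 2) and rank 2044. Its transcripts end with or without the element, and both long forms were present. Slc11a2-205, of 4415 bases and with the element, held 42.3% of the counts in replicate 1 and 37.8% in replicate 2. Slc11a2-201, of 3025 bases and without it, held 47.4% and 49.9%. Per length and between these long forms alone, the form with the element made up 37.7% and 33.9% of the TPM, and 39.5% and 35.0% in the read-derived tables. Over all 8 annotated transcripts its share of TPM was only 19.0% and 17.3%, as 6 transcripts under 1000 bases took 49.5% and 49.0% of the TPM on 10.3% and 12.3% of the counts.

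Hfe (chr13:23702034-23710854, minus strand), the binding partner of the transferrin receptor, stood at 14.6 and 15.1 TPM, a mean of 14.9 ± 0.346 TPM (SD, n = 2) and rank 4345. By TPM it was higher than Tfrc in both libraries, but by counts it was lower in replicate 1, at 1129 against 1252. Hfe-203, of 816 bases, took 48.4% and 49.7% of the Hfe TPM on 16.2% and 16.9% of its counts. Between the transcripts with the most counts, Hfe-202 stood at 7.55 and 7.61 TPM and Tfrc-201 at 6.68 and 4.62 TPM. Slc40a1 (chr1:45908068-45926523, minus strand), the iron exporter, was the lowest of the genes, at 2.66 and 2.60 TPM from 307 and 329 counts, a mean of 2.63 ± 0.0424 TPM (SD, n = 2) and rank 10068. The importer Slc11a2 stood at 11.7 and 11.5 times the TPM of the exporter, and at 18.5 and 18.6 times in the read-derived tables. These ratios rest in part on short transcripts. Those under 1000 bases took 49.5% and 49.0% of the Slc11a2 TPM, and 68.5% and 69.7% of its read-derived TPM. For Slc40a1 they took 2.26% and 0% of the TPM. In counts, Slc11a2 had 2179 and 2288 against 307 and 329 for Slc40a1. Macrophages are known as a main site of ferroportin, and 9 of 10 macrophage markers were detected, with summed levels of 95.01 and 84.4 TPM. Their part in the Slc40a1 level was not tested. Nearly all Slc40a1 TPM, 97.7% and 100%, lay on transcripts with the element.

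Both sensors were present. Aco1 (chr4:40143081-40198338, plus strand), which is a cytosolic aconitase when it holds an iron-sulfur cluster and IRP1 when it does not, stood at 50.2 and 52.6 TPM, a mean of 51.4 ± 1.70 TPM (SD, n = 2) and rank 1110. Ireb2 (chr9:54863789-54912530, plus strand), which encodes IRP2 and is controlled by breakdown of its protein, stood at 16.4 and 17.7 TPM, a mean of 17.1 ± 0.933 TPM (SD, n = 2) and rank 3793. Aco1 was 3.06 and 2.97 times as high as Ireb2. In the read-derived tables the ratio was 4.22 and 3.70, where a transcript of 410 bases, Aco1-203, took 25.5% and 14.0% of the Aco1 TPM on 1.12% and 0.532% of its counts. The full-length forms, Aco1-201 and Ireb2-201, held between 98.8% and 99.8% of the counts of their genes in each library and table.

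None of the 10 genes was 2-fold apart between the libraries, against a background of 0.904%, which is 111 of the 12280 genes with 200 or more summed counts. The ratios below are log2 of TPM plus 0.1, replicate 1 over replicate 2. They ran between -0.11 for Ireb2 and 0.47 for Tfrc, with a median of 0.05 over the 10 genes and -0.04 over all tested genes, whose SD was 0.37. Of the 10 genes, 7 were higher in replicate 1 and 3 were lower, namely Aco1, Ireb2 and Hfe. Aco1 turned positive in the read-derived tables, Ncoa4 turned negative there, and Hfe turned positive with counts scaled by TMM or by DESeq2 size factors. Among all tested genes, 41.3% were higher in replicate 1.

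Tfrc and Trf had the widest ratios of the 10 genes, whereas Slc11a2, which also serves uptake, was at 0.05. For Tfrc the log2 ratio was 0.47, and 6.47% of the tested genes were at least as far apart. For Trf it was 0.37, and 10.5% were at least as far apart. In read-derived TPM the ratio was 0.51 for Tfrc and 0.59 for Trf. The log2 ratio of their shares of counts was 0.50 for Tfrc, with an exact 95% counting interval of 0.38 to 0.63, and 0.38 for Trf, with 0.29 to 0.48. Ferritin differed by less, with 0.09 for Fth1 (0.06 to 0.11) and 0.14 for Ftl1 (0.10 to 0.19), and both sensors were lower in replicate 1, with -0.08 for Aco1 (-0.12 to -0.03), which turned to 0.07 in read-derived TPM, and -0.12 for Ireb2 (-0.19 to -0.06). The intervals of Ncoa4, Slc11a2, Slc40a1 and Hfe included 0. These intervals cover counting error only, and with 1 library on each side they compare libraries, not conditions.

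Several marker lists were higher in replicate 1, as Tfrc and Trf were. All 5 red blood cell markers past the count minimum were higher in replicate 1, with a median log2 ratio of 0.39, and their precursors are known for high Tfrc. Alas2, the erythroid enzyme of haem synthesis, had 12.1 and 9.02 TPM with a log2 ratio of 0.42, and the erythroid membrane marker Slc4a1 had 0.32 and 0.17 TPM. Of the 7 chromaffin markers, 6 were higher in replicate 1, with a median of 0.37. Hepatocytes are the main source of plasma transferrin, and Alb had 22.7 TPM in replicate 1 against 1.34 TPM in replicate 2, while Trf had 38.9 against 30.0 TPM. Of 4 Schwann cell and oligodendrocyte markers past the minimum, 3 were lower in replicate 1, with a median of -0.27. The widest shift was that of skeletal muscle, with 7 of 7 markers higher in replicate 1 and a median of 6.78. Of 9 macrophage markers, 7 were higher, with a median of 0.07. Brown fat had 4 of 6 markers lower, with a median of -0.04, and adrenal cortex 5 of 7, with -0.02. The part of these cells in the Tfrc and Trf values was not tested.

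**Figure D3:**
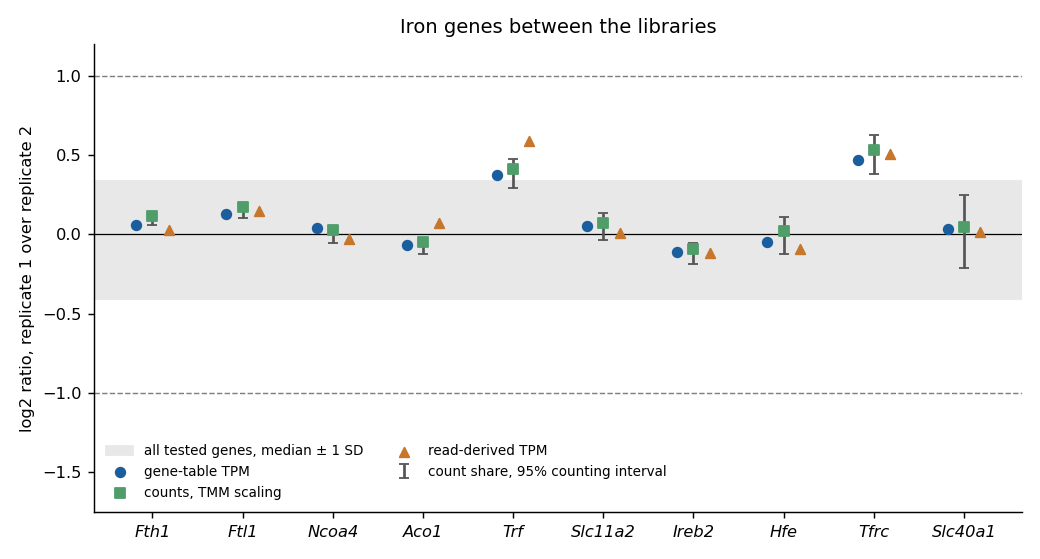
Log2 ratio of replicate 1 over replicate 2 for each gene, from gene-table TPM (blue circles), counts scaled by TMM (green squares) and read-derived TPM (orange triangles), with the 95% counting interval of the count share as bars. The grey band is the median ± 1 SD of all tested genes and the dashed lines mark 2-fold. Tfrc and Trf lie above the band and the other 8 genes inside it, and no value reaches 2-fold.

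The read-derived tables gave higher TPM to every one of the 10 genes, as they did to most genes. The log2 ratio of gene-table TPM over read-derived TPM, each plus 1, had a median of -0.70 over 14975 genes and -0.85 over the 10. The gene tables give 31.6% and 31.2% of their TPM to 7SL RNA, whereas the read-derived tables give it 0.000410% and 0.000297%. Of the 10 genes, 3 were past 2-fold, namely Ncoa4 at -1.45, Slc11a2 at -1.37 and Aco1 at -1.08, against a background of 20.7%. Relative to the median of all genes none was, against a background of 6.32%, and the farthest were Ncoa4 at -0.75 and Slc11a2 at -0.67. In shares of counts the tables were close, with log2 ratios between -0.24 for Aco1 and -0.02 for Ftl1 in both libraries.

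For Ncoa4 and Slc11a2, transcripts under 1000 bases held more of the read-derived TPM. They took 31.1% and 29.6% of the Ncoa4 TPM in the alignment-derived tables and 62.3% and 62.4% in the read-derived ones, and for Slc11a2 49.5% and 49.0% against 68.5% and 69.7%. The read-derived tables gave 62.1% and 62.2% of the Ncoa4 TPM to Ncoa4-203, of 462 bases, on 448 and 476 counts, where the other transcript tables gave it 2.46% and 2.28%. Across the 10 genes, the transcript that led by TPM was the same in both kinds of table for 7, the exceptions being Slc11a2, Ncoa4 and Hfe, whereas the transcript that led by counts was the same for all 10. The leading transcript held a median of 83.6% of the gene's TPM, 75.5% of its read-derived TPM and 92.9% of its counts. For Fth1 the tables differed in another way, as Fth1-203, of 1494 bases and with the element, was given 9126 and 7211 read-derived counts but 0 in the alignment-derived transcript tables. Of 71 annotated transcripts of the 10 genes, 14 had no count in any table.

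**Figure D4:**
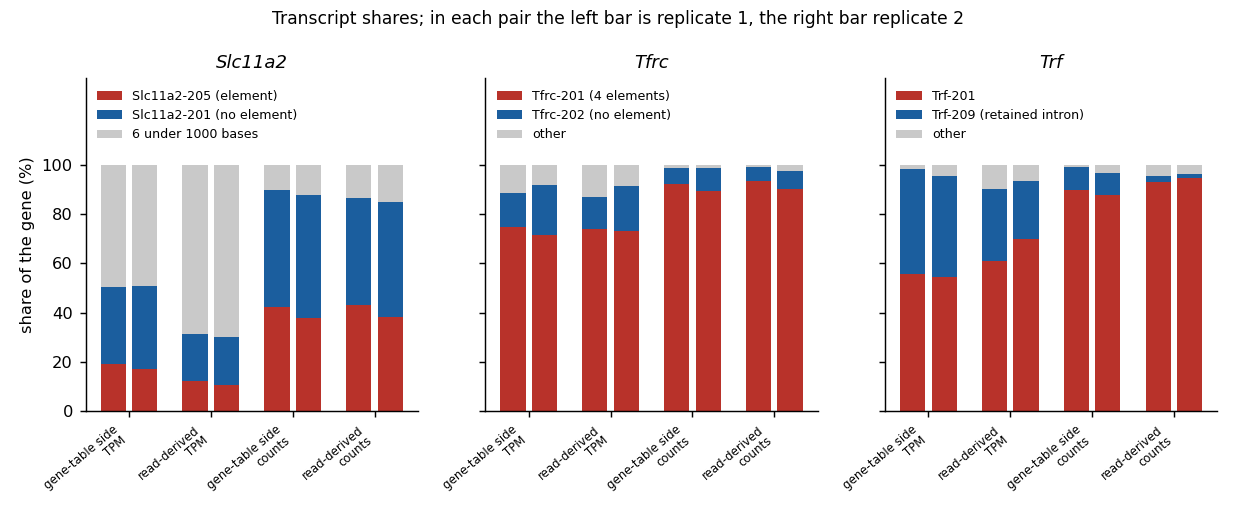
Share of each gene in its transcripts in percent, by TPM and by counts, from the alignment-derived tables (gene-table side) and the read-derived tables; in each pair of bars the left one is replicate 1 and the right one replicate 2. For Slc11a2 the transcripts under 1000 bases (grey) take 49.5% and 49.0% of the gene-table side TPM but 10.3% and 12.3% of the counts, and for Trf the retained-intron fragment (blue) takes 42.5% and 41.0% of the TPM but 9.28% and 8.90% of the counts.

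Other genes of iron handling were read from lists chosen by role, with 64 genes found. Of the genes that turn over the sensors and ferritin, all 7 were detected. Skp1a and Cul1, parts of the ubiquitin ligase that uses Fbxl5 to mark IRP2, were the highest, at 159.7 and 161 TPM for Skp1a and 31.9 and 32.2 TPM for Cul1. Of the iron chaperones and mitochondrial ferritin, 4 of 5 were detected, led by Pcbp2 at 225 and 231 TPM and Pcbp1 at 99.1 and 96.1 TPM, which deliver iron to ferritin. Mitochondrial ferritin, Ftmt, had no count.

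All 21 genes of iron-sulfur cluster assembly were detected. The highest were Fdx1, at 657 and 648 TPM, and Fdxr, at 391 and 355 TPM. These are the ferredoxin and its reductase that pass electrons to the steroid-making enzymes, so their levels are no measure of cluster assembly. Of 7 other importers and mitochondrial carriers, 6 were detected, led by Slc25a28, a mitochondrial iron importer, at 23.6 and 27.8 TPM, and the lysosomal channel Mcoln1 at 11.9 and 11.0 TPM. Of 9 reductases and ferroxidases, 7 were detected, led by Cyb561, a chromaffin granule electron carrier, at 43.1 and 40.8 TPM, and Steap2, a metalloreductase, at 11.8 and 14.05 TPM. None of the genes in these 5 lists with 200 or more summed counts was 2-fold apart between the libraries, against 0.904% of all tested genes.

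Among other mRNAs known for an iron-responsive element, Epas1 stood at 46.7 and 50.1 TPM. The same search found a match in the untranslated regions of Alas2 and Cdc14a and none in Epas1 and Cdc42bpa. Of the hepcidin axis, 7 of 10 genes were detected, led by B2m, the partner chain of HFE, at 204 and 192 TPM, and Neo1 at 16.2 and 17.0 TPM. Hamp was the 1 gene of all these lists past the count minimum that was 2-fold apart between the libraries. The genes past it numbered 21 for iron-sulfur cluster assembly, 7 for turnover, 7 for reductases and ferroxidases and 6 for importers and carriers. They numbered 5 for the hepcidin axis, 5 for other element-bearing mRNAs and 4 for chaperones. Over all tested genes 0.904% were 2-fold apart, so this 1 call is not read as a result about the lists.

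**Figure D5:**
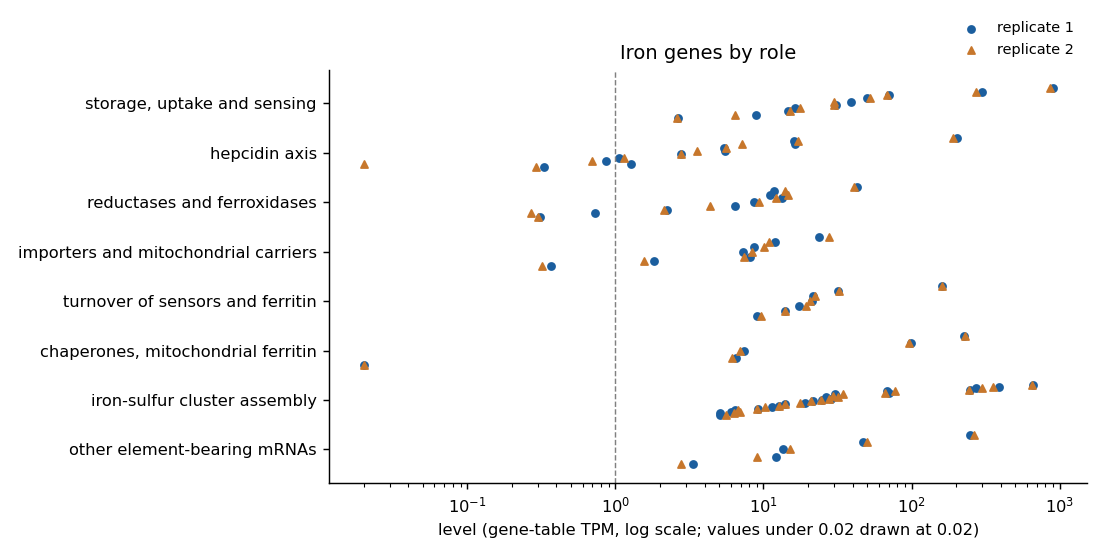
Level of every gene in the iron lists in gene-table TPM on a log scale, by role, with circles for replicate 1 and triangles for replicate 2; the dashed line marks 1 TPM and values under 0.02 are drawn at 0.02. Ferritin heavy chain (903 and 866 TPM) and Fdx1 (657 and 648 TPM) are the highest points, and genes of the hepcidin axis lie on both sides of the line.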

How the data were processed

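Per the file headers, the authors deposited for each library a gene table and an alignment-derived transcript table, each with an expected count and TPM, and a read-derived transcript table with an estimated count and TPM. Text beside the deposited files names mm10 and GENCODE M21; for aligner and versions, not given in the sources used here. Bounds of the TPM interval, as deposited, are a signal of unstated level. They did not always hold the TPM, as for Fth1 in replicate 1 (877 to 899 TPM), and were not used for error.

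Read-derived TPM were summed by gene. Genes needed 200 summed counts to be compared between libraries, with a pseudocount of 0.1 TPM, or a mean of 1 TPM in either table to be compared between tables, with a pseudocount of 1 TPM. Expected counts were rounded for TMM factors (edgeR 4.0.16) and size factors (DESeq2 1.42.0, R 4.3.3). Near copies were found with blastn 2.17.0, at 90% identity over 50% of the leading transcript, and Python 3.11.15 did the rest, including the element search, with the 2-fold calls and the search tested on simulated data. All 10 genes are named; of the other iron lists, the 2 highest genes and any 2-fold apart, except where a result is not reported here. The genes and lists were chosen with earlier results of these data known. Whether counting used strand is not stated, so the levels of overlapping genes are uncertain. mm10 is the genome of 1 parent strain of the hybrid, and the effect of the other parent's alleles was not tested.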

Additional observations from a re-analysis of the deposited data

How the results depend on the processing

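The counts of genes detected, 2-fold apart between libraries and holding an element match were within 1.5 times under every alternative run, and so was the count 2-fold apart between tables, except that it was 0 with the median of all genes taken out. The median log2 ratio of the 10 genes ran from 0.02 in the read-derived tables to 0.06 with DESeq2 size factors. The Fth1 to Ftl1 ratio, 3.11 as a mean, was 1.60 with the records named as Ftl1 copies and 1.57 with all near copies of both genes, and 1.26 with either in the read-derived tables, because the copies add to the light chain. The Ireb2 to Aco1 ratio was 0.332, and 0.253 in the read-derived tables. The median leading transcript share, 83.6% of TPM, was 75.5% in the read-derived tables and 92.9% of counts. The Slc11a2 share with the element, 18.2% of TPM, was 11.5% in the read-derived tables and 35.8% among transcripts over 1000 bases; the cause was not tested. Without replicate 1 or replicate 2 these values ran from 3.04 to 3.18, 0.327 to 0.337, 83.2% to 83.9% and 17.3% to 19.0%, and the counts did not move. Of 50 single-gene ratios under other scalings, 8 moved by more than their counting interval reaches to either side of its middle, and 4 changed sign. All near copies, the median taken out, the share of counts and the long transcripts alone were chosen after seeing the data. No paired analysis was possible because there is 1 group. The 2 libraries give SDs on 1 degree of freedom, and Slc40a1, at 307 and 329 counts, is the gene whose ratio depth limits most.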

Other observations

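Hepcidin mRNA, best known from liver, was present in both libraries. Hamp stood at 16.3 TPM in replicate 1, from 183 counts, and 7.15 TPM in replicate 2, from 86.1 counts, a log2 ratio of 1.18. Its paralog Hamp2 stood at 5.53 and 3.54 TPM, against 2.59 and 1.55 TPM in the read-derived tables. How alike their transcripts are was not measured. Alb, the most abundant hepatocyte marker, was 16.9 times as high in replicate 1 as in replicate 2, whereas Hamp was 2.28 times as high. In replicate 2, Hamp was above Alb, at 7.15 against 1.34 TPM, and the other 7 hepatocyte markers held 1 to 4 counts each. The part of hepatocytes in the Hamp level was not tested. Hfe2, which encodes the hepcidin regulator hemojuvelin and is known from muscle and liver, had 89 counts in replicate 1 and 0 in replicate 2. Set against a floor of 3 counts in the replicate 2 library, its share of counts was 32.2-fold higher in replicate 1. Counting error in the 89 counts is not included, so 32.2-fold is not a lower bound. Skeletal muscle markers differed between the libraries in the same direction, with 7 of 7 past the minimum 2-fold apart, and their part in the Hfe2 counts was not tested.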
